A study of Xenopus laevis with 7 samples.

Results

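The cyclins, the kinases they drive, and the enzymes and inhibitors that set the timing of cell division were examined at the onset of gastrulation in the frog Xenopus laevis. Messenger RNA had been sequenced from wild type embryos of the Nasco background at stage 10.5, with the blastopore lip visible. The samples set against each other were dorsal lips (3 libraries), ventral lips (3 libraries) and whole embryos (1 library). The dorsal lip contains the Spemann organizer, the tissue that directs the body axis, and the ventral lip lies opposite to it. Per the file headers, the number of a library is that of its experiment, whole embryos were sampled in experiment 1, and a single sequencing lane carried the 4 lip libraries of experiments 2 and 3.

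The members were the transcripts whose closest human protein, as the authors assigned it by BLAST, is a cyclin of class A, B, D or E, a cyclin-dependent kinase (CDK), a CDK inhibitor, a CDC25 phosphatase, WEE1, WEE2 or PKMYT1, a CKS subunit, an E2F factor, an aurora kinase or a polo-like kinase. Of 44421 transcripts, 92 fitted this rule, under 44 human symbols. The frog's genome is duplicated, so many genes have an L and an S copy, and a suffix on the name says which. By their descriptions 6 of the 92 are no cell cycle regulators: ccnb1ip1.L, cdkn2aip.L, cdkn2aip.S, cdkn2aipnl.S, and 2 rows with the symbol PLK1 that are described as a substrate of that kinase. They stay in every count. Levels are RPKM, reads scaled to transcript length and to mapped reads, which allows transcripts of unequal length to be set side by side. In the 6 lips, 78 members averaged 1 RPKM or more and were tested, and 14 stayed below that limit.

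Cyclins bind CDKs and switch them on, the cyclin D and E classes before and at the start of DNA synthesis and the A and B classes during synthesis and mitosis. WEE1, WEE2 and PKMYT1 hold mitotic CDKs inactive by phosphorylation and CDC25 phosphatases release them, while CDK inhibitors of the CDKN1 and CDKN2 families block the complexes directly. The fertilised frog egg divides quickly on RNA and protein stored by the mother. Around the mid-blastula transition the embryo begins to transcribe its own genes, the cycles lengthen, and several families pass from a maternal to a zygotic form, as from cyclin A1 to cyclin A2. RNA level alone does not tell stored from newly made transcripts.

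The mapped reads of a library, worked back from the RPKM steps, ranged between 27083637 and 38903417. A single read on a transcript of 1 kb thus stood for 0.0257 to 0.0369 RPKM. The reads recovered on the transcripts ranged between 26438048 and 37999134 for a library. The lips matched their labels: the summed RPKM of chordin, goosecoid and noggin was 1014.5 to 1112.6 in dorsal lips and 3.19 to 7.44 in ventral lips. Sizzled, bambi and wnt8a summed to between 16.1 and 29.7 RPKM in dorsal lips and between 226 and 424 RPKM in ventral lips. Whether replicates are separate clutches is not in the labels, so p-values here measure only a spread between samples that may be technical. In such pieces of tissue, fewer cells of a type and less RNA per cell cannot be told apart.

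Cyclins of the S phase and mitotic classes were among the most abundant members. Of the 11 members at 100 RPKM or more in the lip mean, 9 were cyclins of class A, B or E, and the others were the CDK4 transcript Xetrov90029205m.S and the CKS2 transcript Xelaev18010191m. The highest was cyclin A2, which pairs with CDK2 and CDK1: its copy ccna2.L had 575, 505 and 528 RPKM in dorsal lips, 532, 504 and 519.5 RPKM in ventral lips and 506 RPKM in whole embryos. The 7 values lay close together. The S copy, ccna2.S, had 153, 184 and 150.2 RPKM in dorsal lips, 165, 213 and 196 RPKM in ventral lips and 167 RPKM in whole embryos.

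Cyclin A1, the form known as maternal in the frog, was lower and varied far more. Its copy ccna1.L had 20.6, 95.1 and 57.2 RPKM in dorsal lips, 19.6, 117 and 90.9 RPKM in ventral lips and 19.3 RPKM in whole embryos. For ccna1.S the values were 5.68, 58.6 and 39.1 RPKM in dorsal lips, 6.70, 56.2 and 45.7 RPKM in ventral lips and 5.72 RPKM in whole embryos. All 3 libraries of experiment 1 were low for both copies and the 4 libraries of experiments 2 and 3 were high. Cyclin A1 therefore made up 3.48%, 18.2% and 12.4% of the summed cyclin A RPKM in dorsal lips, 3.64%, 19.5% and 16.0% in ventral lips and 3.59% in whole embryos.

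The B cyclins, which drive entry into mitosis, showed the same split with one class going the other way. Cyclin B1 summed over its transcripts Xelaev18010928m and Xelaev18008213m to 188, 352 and 279 RPKM in dorsal lips, 213, 511 and 421 RPKM in ventral lips and 185 RPKM in whole embryos. The 3 transcripts of cyclin B2 summed to 316, 501 and 452 RPKM in dorsal lips, 344, 652 and 559.6 RPKM in ventral lips and 268 RPKM in whole embryos. Cyclin B3 was high where these were low. It summed to 131, 40.0 and 46.5 RPKM in dorsal lips, 122, 30.7 and 38.7 RPKM in ventral lips and 132 RPKM in whole embryos. As a share of all B cyclin RPKM, cyclin B3 held 20.7%, 4.48% and 5.99% in dorsal lips, 17.9%, 2.58% and 3.79% in ventral lips and 22.5% in whole embryos.

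Cyclin E, the partner of CDK2 at the start of DNA synthesis, was abundant and steadier. Cyclin E1 summed to 490.4, 397 and 428 RPKM in dorsal lips, 484, 398 and 403 RPKM in ventral lips and 459.6 RPKM in whole embryos. Cyclin E2 made up between 24.7% and 30.6% of the cyclin E RPKM in dorsal lips, between 29.5% and 33.4% in ventral lips and 31.1% in whole embryos. The D cyclins, which partner CDK4 and CDK6, were the scarcest class, with a sum of 27.7 to 36.0 RPKM in dorsal lips, 23.2 to 31.9 RPKM in ventral lips and 31.2 RPKM in whole embryos. The D cyclin with the highest level in each library was ccnd2.L, with 19.5, 12.4 and 13.1 RPKM in dorsal lips, 19.5, 12.5 and 13.3 RPKM in ventral lips and 19.0 RPKM in whole embryos. Among the remaining D cyclins were ccndx.L and ccndx.S, whose closest human protein is CCND2, with lip means of 2.15 and 1.05 RPKM. Every cyclin transcript passed the lower limit of 1 RPKM.

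**Figure D1:**
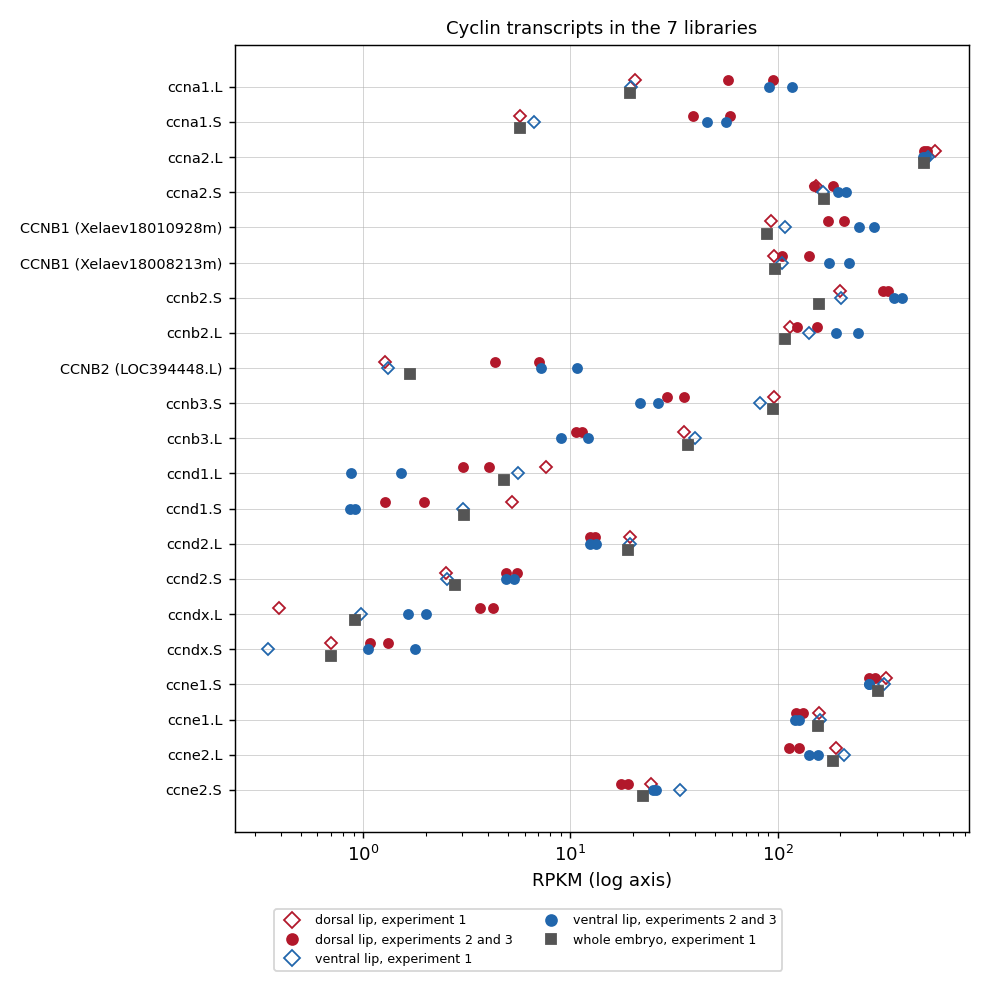
RPKM on a log axis of the 21 cyclin transcripts, with a row for each and a point for each of the 7 libraries: dorsal lips in red, ventral lips in blue, whole embryos as grey squares, experiment 1 as open diamonds. Both copies of cyclin A1 lie far lower in experiment 1 than in experiments 2 and 3, and both copies of cyclin B3 lie higher.

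The kinases that these cyclins bind stood well below the abundant cyclins, with an exception in CDK4. The CDK4 transcript Xetrov90029205m.S had 129.9, 81.6 and 92.1 RPKM in dorsal lips, 144, 85.9 and 82.4 RPKM in ventral lips and 117 RPKM in whole embryos. CDK1, the mitotic kinase, had lip means of 13.5 ± 7.61 RPKM for cdk1.S and 8.38 ± 3.94 RPKM for cdk1.L (SD, n = 6). The 2 CDK2 transcripts averaged 21.6 ± 3.87 and 13.9 ± 4.15 RPKM (SD, n = 6). CDK6 was all but missing: cdk6.S had a value above 0 in 1 library, 0.0130 RPKM in the dorsal lip of experiment 3. CKS2, a small subunit that helps the CDKs to bind substrates, had lip means of 102 ± 22.0 and 92.2 ± 16.5 RPKM for its 2 transcripts, against 15.9 ± 1.99 and 15.4 ± 2.32 RPKM for CKS1B (SD, n = 6).

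Of the kinases that restrain CDK1, the transcripts matched to WEE2 outweighed those matched to WEE1. In the RefSeq gene table the frog gene wee2 carries the synonym Wee1A, known as the maternal form, and wee1 carries Wee1B, known as the zygotic form. These rows of the deposited table have only a transcript number, so the match rests on the human symbol. The WEE2 transcripts Xelaev18019792m and Xelaev18002463m together made up 80.0%, 84.9% and 84.1% of the WEE RPKM in dorsal lips, 80.2%, 90.7% and 89.2% in ventral lips and 66.1% in whole embryos. PKMYT1, which acts on the same kinase from internal membranes, was scarce, with lip means of 9.07 ± 2.99 RPKM for pkmyt1.S and 6.38 ± 0.829 RPKM for pkmyt1.L (SD, n = 6).

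Among the CDC25 phosphatases, which undo the work of WEE1, cdc25a.L was the highest in the lip mean and the most variable. It had 33.8, 106 and 107 RPKM in dorsal lips, 40.5, 124 and 115 RPKM in ventral lips and 29.8 RPKM in whole embryos. The copy cdc25b.L had 56.6, 47.3 and 47.3 RPKM in dorsal lips, 46.6, 66.7 and 59.2 RPKM in ventral lips and 36.2 RPKM in whole embryos. The level of cdc25c.L stayed between 41.4 and 47.2 RPKM in all 7 libraries. CDC25A thus took 42.0%, 65.6% and 68.4% of the RPKM of CDC25A and CDC25C in dorsal lips, 44.9%, 69.3% and 67.3% in ventral lips and 37.0% in whole embryos.

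CDK inhibitors were low as a class. Of 12 members, 5 passed the limit, and the sum over all 12 was 43.0, 23.6 and 25.2 RPKM in dorsal lips, 52.4, 29.7 and 33.7 RPKM in ventral lips and 29.8 RPKM in whole embryos. Most of it came from cdknx, listed in RefSeq with the synonym p27Xic1 and known in the frog as an inhibitor of cyclin E with CDK2. Its S copy had 25.6, 13.5 and 15.6 RPKM in dorsal lips, 35.2, 16.7 and 20.7 RPKM in ventral lips and 17.6 RPKM in whole embryos. The L copy had 8.83, 3.21 and 3.20 RPKM in dorsal lips, 8.95, 6.05 and 5.69 RPKM in ventral lips and 5.29 RPKM in whole embryos. Both copies were highest in the lips of experiment 1. The other transcripts matched to CDKN1B, Xelaev18016735m and Xelaev18019936m, had lip means of 1.25 and 1.08 RPKM.

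The p21 gene cdkn1a, a target of p53 after DNA damage, stayed below the limit. Its L copy had 1.59, 0.272 and 0.302 RPKM in dorsal lips, 1.54, 0.838 and 0.691 RPKM in ventral lips and 0.727 RPKM in whole embryos. The S copy ranged between 0.0394 and 0.350 RPKM over the 7 libraries. The INK4 class, the CDKN2 genes that block CDK4 and CDK6, summed to 3.90, 4.36 and 4.04 RPKM in dorsal lips, 3.77, 3.87 and 4.17 RPKM in ventral lips and 3.39 RPKM in whole embryos. In that class cdkn2c.L was the highest, at a lip mean of 1.75 RPKM, followed by the CDKN2D transcript Xelaev18019021m at 0.988, cdkn2c.S at 0.767 and the CDKN2D transcript Xelaev18021645m at 0.455 RPKM. For cdkn2b.L the deposited values correspond to 8 reads in the dorsal lip of experiment 1, 3 reads in the ventral lip of that experiment, 1 read in the ventral lip of experiment 2, 0 in the remaining lips and 1 read in whole embryos. Its S copy was listed at 0 in all 7 libraries.

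Polo-like and aurora kinases carry cells through mitosis, and PLK2 and PLK3 are also known as stress-responsive kinases. PLK1 was the leading member of both families, at lip means of 87.4 ± 6.67 RPKM for plk1.S and 49.9 ± 5.23 RPKM for plk1.L (SD, n = 6). The copies of PLK2 and PLK3 were lower but varied most, and their values are given with the comparisons in which they moved. PLK4, the kinase of centriole duplication, had a lip mean of 5.86 RPKM for plk4.L. The 4 aurora transcripts had lip means of 15.2 RPKM for aurka.S, 13.7 for aurkb.L, 11.1 for aurkb.1 and 7.12 for aurka.L.

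All 13 E2F transcripts, which encode the factors that control genes of DNA synthesis, passed the limit. The highest was e2f3.S, with 87.2, 103 and 103 RPKM in dorsal lips, 91.2, 106 and 105 RPKM in ventral lips and 90.6 RPKM in whole embryos. Next came e2f5.L at a lip mean of 60.4, e2f8.L at 49.2 and the E2F7 transcript Xelaev18017570m at 48.3 RPKM. E2F1, an activator of S phase genes, was among the scarcest, at 4.18 RPKM for e2f1.L and 2.80 RPKM for e2f1.S, and e2f6.L was the lowest at 1.07 RPKM.

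Copies on the L and S subgenomes often differed in level. Among 29 pairs, the L copy was higher in all 7 libraries in 14 and the S copy in 10, the order changed between libraries in 3, and both copies were at 0 in at least 1 library in 2. A mean log2 difference over the lips of at least 1, or 2-fold, separated 16 pairs. The most unequal pair by the difference in log2(RPKM + 0.5) was cdc25a, at 3.90, with lip means of 87.7 RPKM for the L copy and 5.10 RPKM for the S copy. Next was plk4 at 3.34, with 5.86 RPKM for L and 0.115 RPKM for S. As a plain ratio of RPKM, plk4 was the further apart of these, 50.7-fold against 17.2-fold for cdc25a. Cyclin E2 had 156 RPKM for ccne2.L and 24.3 RPKM for ccne2.S, while e2f6 had 1.07 RPKM for L and 7.94 RPKM for S. In cdc25c the L copy stood at 44.5 RPKM and the S copy at 10.8 RPKM. How the authors treated reads that fit both copies is not given in the sources used here, so the split of a pair is uncertain to that degree.

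**Figure D2:**
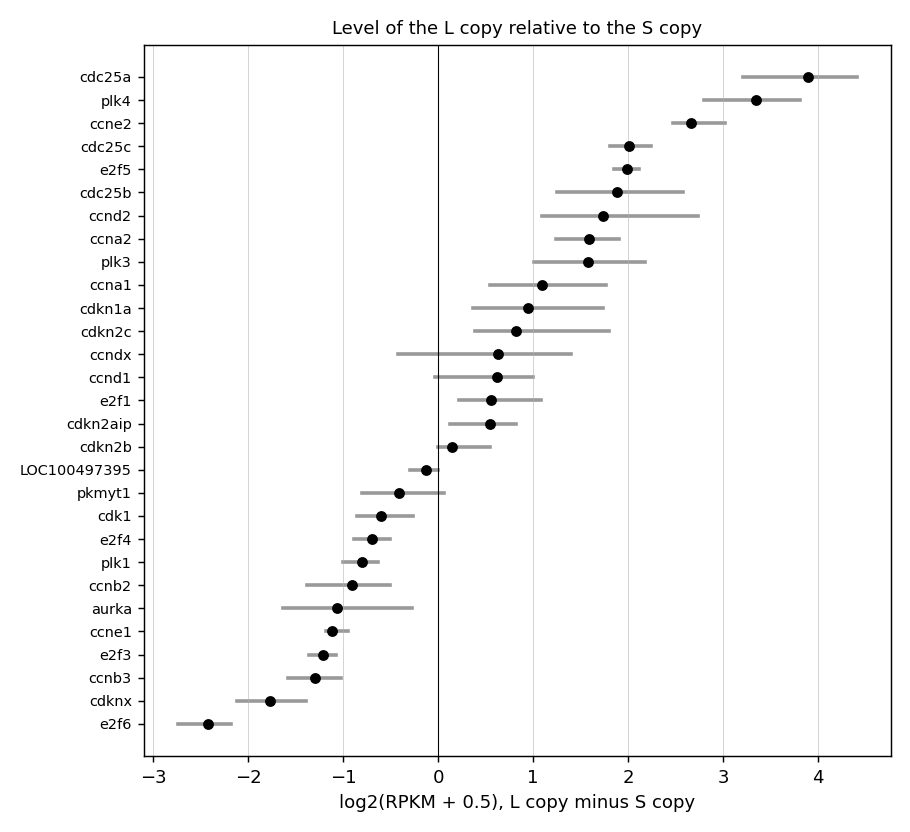
Log2(RPKM + 0.5) of the L copy minus that of the S copy for 29 pairs, with the mean over the 6 lips as a point and the range over all 7 libraries as a bar. The cdc25a pair leans most to L at 3.90 and the e2f6 pair most to S at -2.42.

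The levels of many members followed the experiment more than the side. The 2 lips of experiment 1 were compared with the 4 lips of experiments 2 and 3, on log2(RPKM + 0.5) with side of the embryo as a covariate. The fit counted lips of the same experiment as separate replicates, although 1 experiment was set against 2. Its SE and p-values therefore do not measure how far experiments vary. That limit holds for every comparison of experiment 1 with experiments 2 and 3 below. By limma with Benjamini-Hochberg adjustment over 16514 transcripts and a threshold of 0.05, 60 of the 78 tested members differed, where 73.2% of all tested transcripts did. That share is near the background and is no result about the members. In direction, 31 members were higher in experiment 1 and 29 lower, against 26.3% of all transcripts higher and 46.9% lower. The filter averaged 2 lips of experiment 1 with 4 of experiments 2 and 3, so it favoured transcripts low in experiment 1. Among those 29, e2f1.S, ccndx.L and ccndx.S were below 1 RPKM in both lips of experiment 1. They passed the filter only through experiments 2 and 3. The untested cdkn1a.L had 1.59 and 1.54 RPKM in experiment 1, with a lip mean of 0.872 RPKM. Rescaling the libraries by a trimmed mean of log ratios (TMM, unweighted) moved the median log2 difference over all transcripts to 0.019, against -0.18 as deposited, and the split of the members to 37 higher and 21 lower. After it, 73.0% of all transcripts were called, 37.6% higher and 35.4% lower. At least 2-fold apart as well were 18 members, against 18.2% of all transcripts: 8 were higher, against 5.14%, and 10 lower, against 13.1%. Rescaled, these were 12 higher, against 7.5%, and 8 lower, against 8.77%. Experiment, sequencing lane and anything else that set experiment 1 apart cannot be told apart here.

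The 10 members at least 2-fold lower in experiment 1 were 12.8% of those tested. That share is near the 13.1% of all transcripts and is no result about the members. The 10 were 4 transcripts of A and B cyclins, 4 of E2F factors, cdc25a.L and ccndx.L. Cyclin A1 fell furthest. The S copy ccna1.S had 5.68 and 6.70 RPKM in the dorsal and ventral lips of experiment 1, against 58.6, 56.2, 39.1 and 45.7 RPKM in the lips of experiments 2 and 3, a log2 difference of -2.90 (SE 0.162, limma adjusted p = 1.68e-05). For ccna1.L the difference was -2.09 (SE 0.223, limma adjusted p = 0.000193), and the 2 sets of lips did not overlap. The scarce cyclin B2 transcript LOC394448.L had 1.27 and 1.31 RPKM in experiment 1, against 7.03, 10.7, 4.31 and 7.22 RPKM in experiments 2 and 3 (-2.06, limma adjusted p = 0.000305). The cyclin B1 transcript Xelaev18010928m stood at 92.5 and 108 RPKM in experiment 1, against 209.6, 291, 174 and 245 RPKM in experiments 2 and 3 (-1.17, limma adjusted p = 9.7e-05).

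E2F1, known to activate genes of DNA synthesis, was low in experiment 1 for both copies. For e2f1.S the values were 0.496 and 0.652 RPKM in experiment 1, against 4.31, 5.42, 2.31 and 3.60 RPKM in experiments 2 and 3, with a log2 difference of -1.99 (SE 0.244, limma adjusted p = 0.000358). The L copy differed by -1.64, and the repressor-class factor E2F4 by -1.23 for e2f4.L and -1.08 for e2f4.S, each with a limma adjusted p under the threshold. In all, 9 of the 13 E2F transcripts were lower in experiment 1 and 1, e2f8.L, was higher, where 46.9% of all transcripts were lower. After rescaling 6 were lower and 1 higher, where 35.4% of all were lower. The phosphatase cdc25a.L differed by -1.59 (SE 0.0491, limma adjusted p = 3.42e-06), and ccndx.L by -1.48 (limma adjusted p = 0.00648). Both e2f1.S and ccndx.L passed the filter only through experiments 2 and 3, as given above.

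The members at least 2-fold higher in experiment 1 were copies of PLK2, cyclin B3, cyclin D1 and CDK1. The polo-like kinase copy plk2.L had 13.4 and 11.0 RPKM in the dorsal and ventral lips of experiment 1, against 1.91, 3.21, 1.91 and 3.45 RPKM in experiments 2 and 3. Its log2 difference was 2.05 (SE 0.199, limma adjusted p = 0.000127), and plk2.1 differed by 1.28 (limma adjusted p = 0.00496). Cyclin B3 differed by 1.76 for ccnb3.L and 1.66 for ccnb3.S, with limma adjusted p of 3.32e-05 and 2.5e-05. Cyclin D1, which carries growth signals to CDK4, had 5.25 and 3.02 RPKM for ccnd1.S in experiment 1, against 1.27, 0.910, 1.97 and 0.862 RPKM in experiments 2 and 3 (1.40, limma adjusted p = 0.000187). The L copy differed by 1.45. CDK1 differed by 1.38 for cdk1.S and 1.13 for cdk1.L, with every library of experiment 1 above those of experiments 2 and 3.

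Counted at any size of change, the classes split as follows. All 6 polo-like kinase transcripts that passed the test, of 7 tested, were higher in experiment 1, as were 3 of 5 CDK inhibitors and 5 of 8 CDKs, while 1 CDK4 transcript, Xetrov90029205m.1, was lower. Among the polo-like kinases, plk3.L had 34.6 RPKM in the dorsal lip of experiment 1, against 31.1 and 33.3 RPKM in experiments 2 and 3. Its change lay mainly in the ventral lip, with 26.4 RPKM in experiment 1 against 6.85 and 7.14 RPKM. Over all tested transcripts 26.3% were higher and 46.9% lower. After rescaling, where 37.6% of all were higher and 35.4% lower, the polo-like kinases kept 6 higher and 0 lower, the tested CDK inhibitors had 5 higher of 5, and the CDKs had 6 higher and 0 lower of 8. Of 12 CDK inhibitors only these 5 were tested, and 4 of them match CDKN1B. Untested ones went both ways. Xelaev18019021m averaged 0.439 RPKM in experiment 1 against 1.26 in experiments 2 and 3, cdkn2c.S 0.548 against 0.876, and Xelaev18021645m 0.394 against 0.485. For cdkn1a.L these means were 1.565 against 0.526, for cdkn1a.S 0.239 against 0.128, and for cdkn2b.L 0.159 against 0.00805. Of 10 D and E cyclins, 7 were higher and 3, namely ccnd2.S, ccndx.L and ccndx.S, were lower. Within cyclin D2 the copies therefore moved apart: ccnd2.L differed by 0.59 and ccnd2.S by -0.90, with limma adjusted p of 0.00015 and 0.000177. The A and B cyclins had 2 higher and 7 lower of 11, and 3 higher and 6 lower after rescaling. The 18 members at least 2-fold apart kept their direction and stayed under the threshold in every alternative run that tested them. The run limited to a mean of at least 5 RPKM did not test plk2.1, ccnd1.L, ccnd1.S, e2f1.L, e2f1.S and ccndx.L. Of the 60 called members, 8 lost their calls when rescaled, all lower as deposited: the WEE2 transcript Xelaev18002463m, the CKS1B transcript Xelaev18040898m, Xetrov90029205m.1, ccnb2.L, cdc25c.S, e2f3.S, e2f5.L and e2f6.S.

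**Figure D3:**
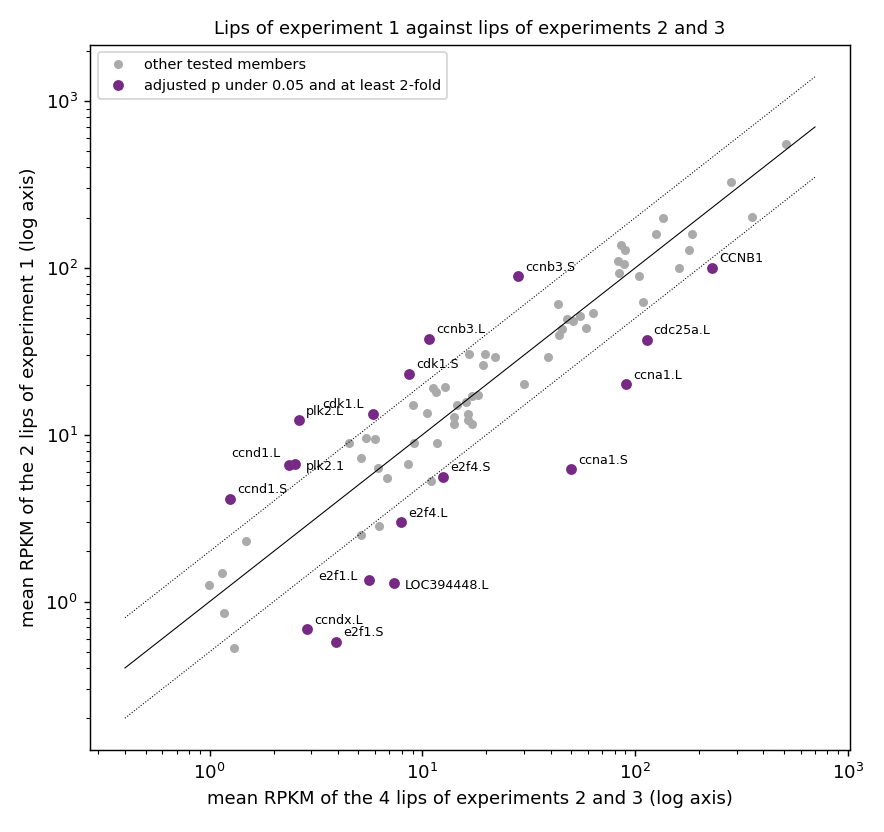
Mean RPKM of the 2 lips of experiment 1 against the mean of the 4 lips of experiments 2 and 3, both on log axes, for the 78 tested members; the solid line marks equality, the dotted lines a factor of 2, and purple points passed limma at an adjusted p under 0.05 and 2-fold. The 10 purple points under the line include both copies of cyclin A1 and of E2F1, and the 8 above it include both copies of cyclin B3, cyclin D1 and CDK1.

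Next, dorsal lips were set against ventral lips, to see whether the organizer side differs in its cell cycle genes. Without regard to experiment, limma called 0 of 78 members at an adjusted p under 0.05, where 0.327% of all tested transcripts were called, and limma voom on the recovered reads also called 0. At an unadjusted p under 0.05 there were 8 members, against 3.12% of all. Since the experiments lay so far apart and same-numbered lips deviated together, a second fit took experiment as a block. It called 12 members, where 4.71% of all transcripts were called: 7 were higher in dorsal lips, against a background of 2.37%, and 5 in ventral lips, against 2.34%. In experiments 2 and 3 alone, without a block, 14 members were called, where 4.23% of all were: 8 were higher in dorsal lips, against 2.85%, and 6 in ventral lips, against 1.37%. The fit with the block over all 3 experiments and this one named 21 members together, 5 of them in both. Experiments 2 and 3 with the block gave 29 calls, where 9.25% of all were called. These 29 calls, and the 12 with the block over all 3 experiments, rest on pairing the lips by number within experiments 2 and 3. The deviations do not settle that pairing. The members' median log2 difference was 0.005, against -0.053 over all transcripts.

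These calls rest on agreement between few libraries. Leaving out a lip of experiment 2 or 3 from the fit with the block left 0 calls, where 0.46 to 1.14% of all transcripts were called. Leaving out either lip of experiment 1 gave 30, where 9.11% of all were called without its dorsal and 9.1% without its ventral lip. With the block, a lip without its partner adds nothing to the difference, so each such run in effect dropped a whole experiment. The 30 calls are thus in effect the fit of experiments 2 and 3 with the block, and they share its limit on pairing. The values of dorsal and ventral lips did not overlap for 11 of the 78 tested members, where this held for 6.9% of all transcripts: 7 were higher in dorsal lips, against 3.09%, and 4 in ventral lips, against 3.81%. Tissue markers differed between these lips as well. The summed RPKM of 3 genes listed here as neural ectoderm markers, SOX2, ZIC1 and OTX2, was 1011.7 to 1015.8 in dorsal and 388 to 478.5 in ventral lips. Most of that sum was OTX2, with 812 to 869 RPKM in dorsal and 335 to 427 RPKM in ventral lips. The sum is thus mainly a level of OTX2 and does not measure the amount of neural ectoderm. SOX2 had 29.5, 8.01 and 8.55 RPKM in dorsal lips, against 14.9, 9.15 and 8.50 RPKM in ventral lips. The summed RPKM of 4 epidermis markers was 29.6 to 50.4 in dorsal and 121 to 210 in ventral lips. None of these 7 markers was at 0 in a lip. The 3 genes listed here as pan-mesoderm markers, T, EOMES and MIXER, summed to between 541 and 698 RPKM in dorsal and between 281 and 627 RPKM in ventral lips. The part of tissue make-up in the differences below was not tested.

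The largest dorsal excess was in PLK3. The L copy plk3.L had 34.6, 31.1 and 33.3 RPKM in dorsal lips, against 26.4, 6.85 and 7.14 RPKM in ventral lips, and 36.8 RPKM in whole embryos. Every dorsal value lay above every ventral one, but the ventral lip of experiment 1 was close to the dorsal lips and to the whole embryo. The log2 difference of 1.54 (SE 0.516) had a limma adjusted p of 1.0 without the block and 0.080 with it, and in experiments 2 and 3 alone it was 2.13 with a limma adjusted p of 2.12e-05. The S copy plk3.S had 12.2, 7.61 and 8.09 RPKM in dorsal lips, against 6.95, 3.15 and 2.84 RPKM in ventral lips, and 7.78 RPKM in whole embryos. Here all 3 experiments had the dorsal lip higher, by 0.77, 1.15 and 1.36 on the log2 scale, with no overlap and a limma adjusted p of 0.0158 with the block.

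WEE1, which delays mitosis by phosphorylating CDK1, was also higher dorsally in both of its transcripts. Xelaev18021796m had 14.9, 14.9 and 13.9 RPKM in dorsal lips, against 12.2, 6.71 and 6.52 RPKM in ventral lips, and 19.9 RPKM in whole embryos. Xelaev18024552m had 14.2, 17.0 and 16.6 RPKM in dorsal lips, against 11.4, 10.8 and 12.1 RPKM in ventral lips, and 22.1 RPKM in whole embryos. In neither did the lips overlap, and the whole embryo stood above all 6. The log2 differences were 0.81 (SE 0.252) and 0.46 (SE 0.122). Their limma adjusted p was 0.0652 and 0.0405 with the block, and of 0.000995 and 0.0182 in experiments 2 and 3 alone. The WEE2 transcripts differed by 0.18 and 0.11 and were called in neither fit.

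The CDC25B phosphatase was divided between its copies. For cdc25b.S the values were 18.1, 17.5 and 19.6 RPKM in dorsal lips, against 11.9, 11.4 and 9.50 RPKM in ventral lips, and 10.1 RPKM in whole embryos. The dorsal lips were higher without overlap, by 0.73 on the log2 scale (SE 0.129, limma adjusted p = 0.187 without and 0.0259 with the block). The L copy, at a lip mean of 54.0 RPKM against 14.7 RPKM for the S copy, was higher in the ventral lips of experiments 2 and 3, by 0.41 (limma adjusted p = 0.0264 in those 2 experiments), but higher in the dorsal lip of experiment 1, by 0.28. Over all 3 experiments cdc25b.L was not called with the block (limma adjusted p = 0.491).

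Smaller dorsal excesses with the block were found in aurkb.L, ccnb3.S, e2f8.L and the CKS2 transcript Xelaev18006987m, at log2 differences of 0.44, 0.35, 0.24 and 0.23 and limma adjusted p of 0.0449, 0.0337, 0.0431 and 0.0339. Aurora B acts at chromosomes in mitosis, and E2F8 is a repressor of the E2F family. In these 4 the values of the 2 sides overlapped across experiments, and the dorsal lip was higher within each experiment. The other AURKB transcript, aurkb.1, differed by 0.035 and was not called (limma adjusted p = 0.736 with the block). Nor was the other CKS2 transcript, Xelaev18010191m, at 0.18 (limma adjusted p = 0.0504 with the block). Cyclin D1 also leaned dorsal: ccnd1.L had 7.64, 3.03 and 4.06 RPKM in dorsal lips, against 5.61, 0.874 and 1.52 RPKM in ventral lips, and 4.78 RPKM in whole embryos. Its log2 difference of 0.99 (SE 0.623) was not called with the block (limma adjusted p = 0.0574) but was called in experiments 2 and 3 alone, at 1.27 (limma adjusted p = 0.0281).

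On the ventral side, cyclin E2 had the lowest adjusted p of all members in the fit with the block. Its copy ccne2.S had 24.4, 17.6 and 19.0 RPKM in dorsal lips, against 33.8, 25.1 and 25.7 RPKM in ventral lips, and 22.4 RPKM in whole embryos. The dorsal lip was lower by 0.46, 0.50 and 0.43 on the log2 scale in the 3 experiments, and the sides did not overlap (limma adjusted p = 0.0091 with the block). The abundant copy ccne2.L differed by -0.25 (limma adjusted p = 0.0532 with the block), and cyclin E1 by 0.04 and 0.02 for its S and L copies.

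Some transcripts of the mitotic cyclins B1 and B2 were also higher in ventral lips in the fit with the block. For ccnb2.L the values were 115, 154 and 124 RPKM in dorsal lips, against 142, 245 and 190.2 RPKM in ventral lips, and 108 RPKM in whole embryos. The ventral lip was the higher one in each experiment, and the log2 difference was -0.53 (SE 0.225, limma adjusted p = 0.0304 with the block). The cyclin B1 transcript Xelaev18010928m differed by -0.39 (SE 0.472, limma adjusted p = 0.0358 with the block). Its partner Xelaev18008213m differed by -0.50 but was not called (limma adjusted p = 0.0808 with the block). Of the CCNB2 matches, ccnb2.S differed by -0.13 and LOC394448.L by -0.43, and neither was called (limma adjusted p = 0.16 and 0.136 with the block). The S copy of cyclin B3 was thus on the other side from the called B1 and B2 transcripts, while ccnb3.L differed by -0.0092 and was not called.

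The block also called in the ventral direction cdknx.S, at -0.39 (limma adjusted p = 0.0259), and e2f6.S, at -0.36 (limma adjusted p = 0.0457). E2F6 is a repressor that works without the retinoblastoma proteins. Its L copy, e2f6.L, differed by 0.0073 and was not called (limma adjusted p = 0.973 with the block). The L copy of cdknx was called in experiments 2 and 3 alone, at -0.78 (limma adjusted p = 0.0144), where it had 3.21 and 3.20 RPKM in dorsal and 6.05 and 5.69 RPKM in ventral lips. The E2F7 transcript Xelaev18017570m, another repressor of the family, had 30.9, 41.2 and 40.3 RPKM in dorsal lips, against 67.5, 52.8 and 56.9 RPKM in ventral lips, and 47.6 RPKM in whole embryos. All ventral values exceeded all dorsal ones, and the log2 difference of -0.65 (SE 0.157) had a limma adjusted p of 0.514 without the block, 0.0758 with it and 0.0124 in experiments 2 and 3 alone. The other E2F7 transcript, Xelaev18021143m, differed by -0.21, and its sides overlapped. It was called in neither fit (limma adjusted p = 0.0705 with the block and 0.208 in experiments 2 and 3 alone).

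**Figure D4:**
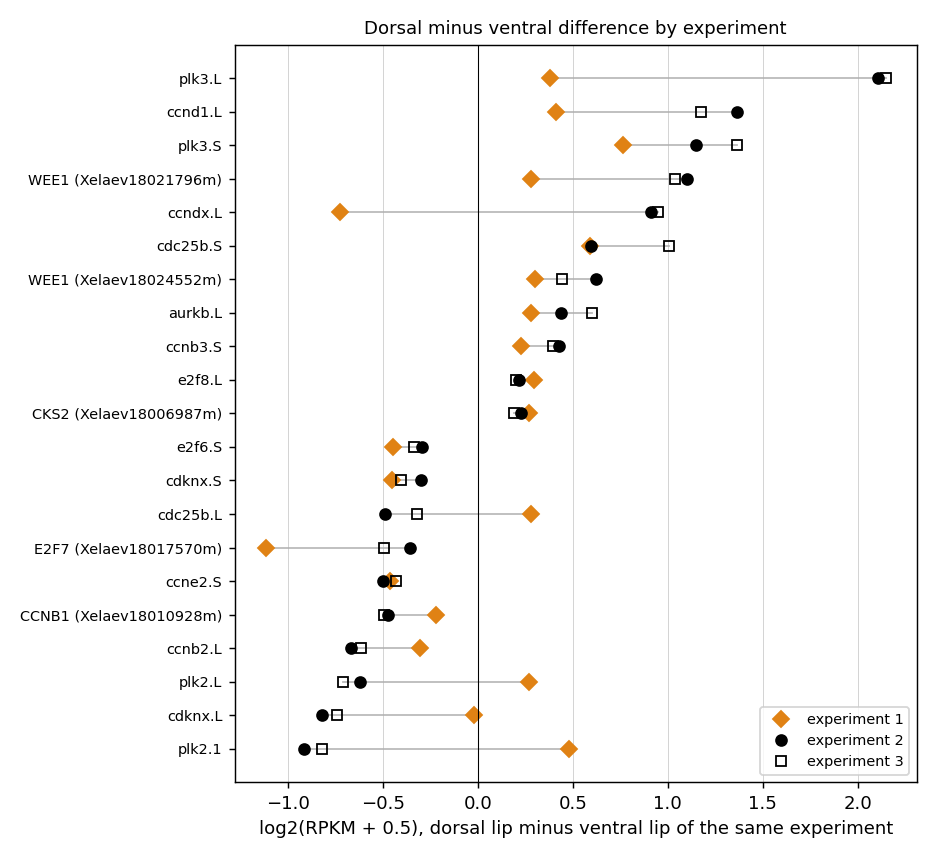
Dorsal minus ventral difference in log2(RPKM + 0.5) within each experiment, for the 21 members called by limma with the experiment as a block or in experiments 2 and 3 alone; points right of 0 are higher in the dorsal lip. In ccne2.S the 3 experiments lie together near -0.46, whereas in plk3.L experiment 1 lies at 0.38 and experiments 2 and 3 at 2.11 and 2.15.

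Whether the dorsal to ventral difference itself was unequal between experiments was tested with an interaction term in limma, chosen after seeing the data. It was called for 1 of 78 members, plk3.L, where 0.648% of all transcripts were called. The dorsal excess of plk3.L in experiment 1 was smaller by 1.74 on the log2 scale than that in experiments 2 and 3 (SE 0.120, limma adjusted p = 0.00792). Experiment 1 has 1 library for each side, so these lone libraries are assumed to vary like the others. PLK2 changed sides without passing that test: plk2.1 had 7.82 RPKM in the dorsal and 5.46 RPKM in the ventral lip of experiment 1, and 1.52 and 1.77 RPKM in dorsal against 3.29 and 3.51 RPKM in ventral lips of experiments 2 and 3 (limma adjusted p = 0.0741 for the difference). The D cyclin ccndx.L also changed sides, with 0.393 RPKM in the dorsal and 0.976 RPKM in the ventral lip of experiment 1, and 4.23 and 3.64 RPKM in dorsal against 2.01 and 1.65 RPKM in ventral lips of experiments 2 and 3 (limma adjusted p = 0.0594).

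In the authors' deposited table, which tests experiments 2 and 3 only, 18 of 90 members with an adjusted p were under 0.05, where 3.38% of all transcripts were. The authors' deposited table of dorsal transcripts, with 315 entries, lists 5 members: plk3.L at a ratio of 4.61, ccnd1.L at 2.97, plk3.S at 2.62, Xelaev18021796m (WEE1) at 2.18 and ccndx.L at 2.15. Its ventral counterpart, also the authors' deposited table, has 94 entries and lists 1 member, plk2.1, at a ventral to dorsal ratio of 2.07. The authors' deposited table of correlations with chordin, which spans further kinds of sample not analysed here, gives 0.723 for plk3.S and 0.616 for plk3.L, where the members ranged between -0.471 and 0.723 with a median of -0.0685. The other members of the authors' deposited dorsal table had 0.275 for ccndx.L, -0.113 for Xelaev18021796m and -0.129 for ccnd1.L, and plk2.1 had -0.450. Over all transcripts the authors' deposited coefficients had a median of 0.0063 and quartiles of -0.159 and 0.162. Correlations with bambi in the authors' deposited table were -0.311 for plk3.S and -0.340 for plk3.L. In these deposited values the members ranged between -0.474, for ccndx.L, and 0.764, for cdknx.S, with a median of 0.0241. The L copy cdknx.L had 0.682. All transcripts had a median of -0.0459 and quartiles of -0.238 and 0.155 in the authors' deposited correlations with bambi. The kind of coefficient is not stated there.

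The lips were set against the whole embryo within experiment 1, since the single whole embryo library belongs to it. With 1 library on each side there is no test and no replicate check. No member lay at least 2-fold from the whole embryo in both lips, where 0.563% of all transcripts did. The members' median log2 difference, taken over both lips, was 0.112, against -0.04 over all transcripts. The mean of all 6 lips put 7 members at least 2-fold above the whole embryo, where 5.75% of all transcripts lay that far above it. Of these lips 4 came from experiments 2 and 3, so that mean mixes lip against whole embryo with the difference between experiments. For ccna1.L it was 66.8 RPKM, while the lips of experiment 1 had 20.6 and 19.6 RPKM, against 19.3 RPKM in whole embryos.

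Highest against the whole embryo stood plk2.1, with 7.82 RPKM in the dorsal and 5.46 RPKM in the ventral lip of experiment 1, against 2.79 RPKM in whole embryos. The copy plk2.L followed with 13.4 and 11.0 RPKM in the dorsal and ventral lip, against 6.41 RPKM in whole embryos. The inhibitor cdknx was next in both copies, at a mean log2 difference of 0.75 for the S copy and 0.70 for the L copy, and the CKS1B transcript Xelaev18040898m reached 0.59. In the dorsal lip plk2.1 and plk2.L were past 2-fold, at log2 differences of 1.34 and 1.005. They were 2.56% of the tested members, near the 2.12% of all transcripts, which is no result about the members. In the ventral lip no tested member was past 2-fold, where 1.53% of all were. A further PLK2 match below the limit, LOC100487804.L, had 0.0149 and 0.0296 RPKM in the dorsal and ventral lip, against 0.0602 RPKM in whole embryos. The PLK2 copies that were high in these lips were low in the dorsal lips of experiments 2 and 3, at 1.52 to 1.91 RPKM.

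Lowest were both WEE1 transcripts, at -0.77 for Xelaev18024552m and -0.54 for Xelaev18021796m. Their counterparts matched to WEE2 were higher in these lips than in the whole embryo, at 0.43 for Xelaev18019792m and 0.26 for Xelaev18002463m, so the WEE2 share was 80.0% in the dorsal and 80.2% in the ventral lip, against 66.1% in whole embryos. The tissues differed too: the 3 endoderm markers found summed to 132 RPKM in the dorsal and 120.3 RPKM in the ventral lip, against 288 RPKM in whole embryos, and the 3 germ plasm markers to 66.4 and 67.6 RPKM, against 108 RPKM. Their part in these differences was not tested. Next from the bottom were e2f1.L at -0.47, cdc25c.S at -0.41 and e2f4.L at -0.32. For e2f1.L this meant 1.33 and 1.36 RPKM in the dorsal and ventral lip, against 2.06 RPKM in whole embryos.

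**Figure D5:**
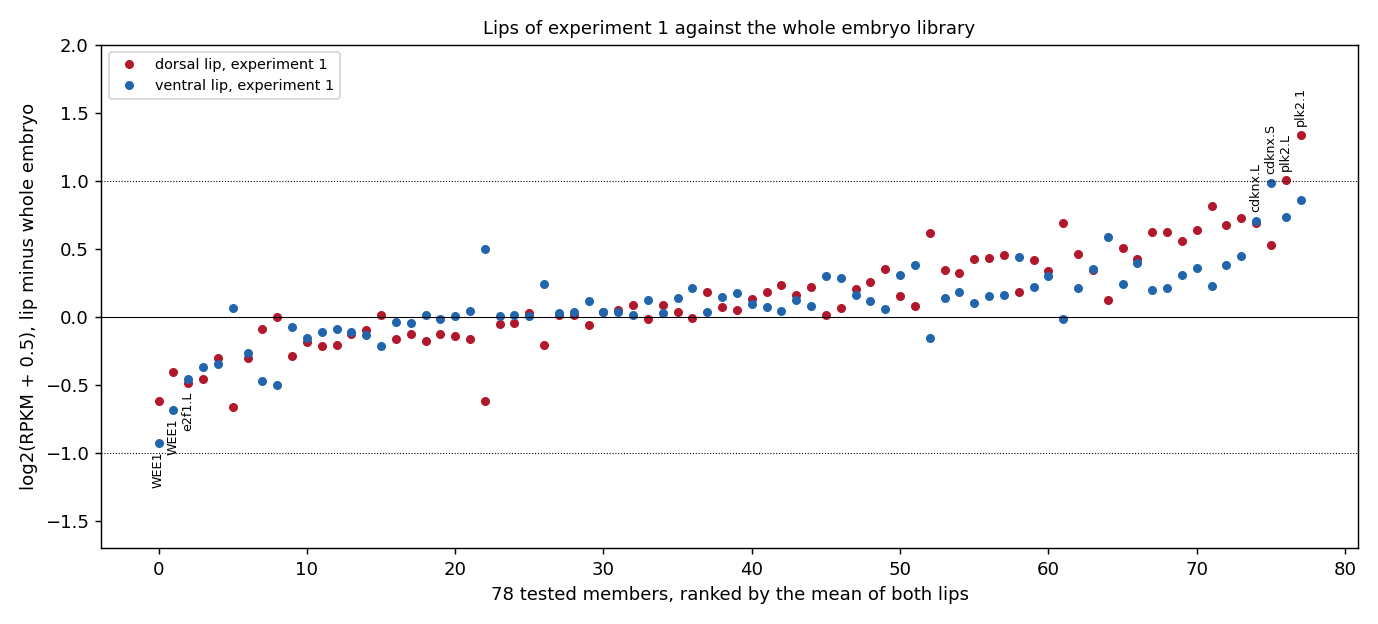
Log2(RPKM + 0.5) of each lip of experiment 1 minus the whole embryo library, for the 78 tested members ranked by the mean of both lips; dotted lines mark 2-fold. The points run between -0.77 for a WEE1 transcript and 1.10 for plk2.1 in the mean of both lips, and no member has both points past a dotted line.

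The authors' deposited injury table, which lists 744 transcripts by their ratio of lips to whole embryo in experiment 1, holds 3 members, all CDK inhibitors below the limit of 1 RPKM. In that authors' deposited table cdkn2b.L has a ratio of 9.23 in the dorsal and 3.36 in the ventral lip, which rests on the 8, 3 and 1 reads given above. The authors' deposited table gives cdkn2c.S 2.47 in the dorsal and 2.08 in the ventral lip, from 15 and 13 reads against 7 in whole embryos. For cdkn1a.L, the p21 gene, the authors' deposited table gives 2.27 and 2.15, from 250 and 243 reads in the dorsal and ventral lip, against 127 in whole embryos. In the dorsal lips of experiments 2 and 3 cdkn1a.L was at 0.272 and 0.302 RPKM, and in their ventral lips at 0.838 and 0.691 RPKM.

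Genes that work beside the members were counted from 3 lists by human symbol. Of 32 tested transcripts for replication licensing, which load and fire the origins, 6 were higher and 19 lower in experiment 1 than in experiments 2 and 3, by limma over all transcripts. At least 2-fold lower were both copies of cdc45-like, mcm3.L and mcm4.S. Dorsal and ventral lips differed in 0 of these without the block and in 1 with it, cdt1.1, which was higher in ventral lips (log2 difference -0.19, limma adjusted p = 0.0396), where 2.34% of all transcripts were. The anaphase promoting complex and spindle checkpoint list had 7 higher and 17 lower of 32 in experiment 1, and 0 dorsal to ventral calls in either fit. At least 2-fold higher there were both copies of mad2l1, a spindle checkpoint protein, and fbxo5.S, an inhibitor of the complex. At least 2-fold lower were espl1-like.L at -1.86, anapc7.L, a subunit of the complex, at -1.44, and fbxo43-like.S at -1.18. The gene espl1 encodes separase, which cleaves cohesin at anaphase. These shares stand against the 26.3% higher and 46.9% lower of all transcripts. At least 2-fold, 5.14% of all transcripts were higher and 13.1% lower. The 4 licensing transcripts that were 2-fold lower, of 32, are near that share and are no result about the list. All 3 lists were counted on the values as deposited. Rescaling, which moved all transcripts to 37.6% higher and 35.4% lower, was not applied to these counts.

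The list of damage checkpoint genes, retinoblastoma family and E2F partners leaned the other way as deposited. It had 14 higher and 4 lower of 22 in experiment 1, where 26.3% of all transcripts were higher and 46.9% lower. At least 2-fold higher, averaged over both sides, were both copies of gadd45g, ccng1.L and mdm2.L, where 5.14% of all transcripts were. Of these, ccng1 and mdm2 are known p53 targets. The change of gadd45g.L lay mainly in the ventral lip, with 35.1 RPKM in experiment 1 against 8.57 and 9.05 RPKM in experiments 2 and 3. Its dorsal lips had 41.7 RPKM in experiment 1 against 37.6 and 34.2 RPKM. At least 2-fold lower was the checkpoint kinase copy chek1.S, at -1.35 (limma adjusted p = 0.00193). In experiment 1, mdm2.L had 6.51 RPKM in the dorsal and 5.89 RPKM in the ventral lip, against 3.31 RPKM in whole embryos. With the block, chek1.L and gadd45a.L were higher in ventral lips, at log2 differences of -0.50 and -0.86 and limma adjusted p of 0.0466 and 0.0033, where 2.34% of all transcripts were. The checkpoint kinase chek1.L, which slows the cycle at the mid-blastula transition, was the gene of these lists that was at least 2-fold lower in both lips of experiment 1 than in the whole embryo, with 5.99 RPKM in the dorsal and 7.53 RPKM in the ventral lip, against 16.0 RPKM in whole embryos.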

How the data were processed

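The deposited values are RPKM per transcript, scaled by the authors to transcript length and mapped reads, for the JGI 9.1 gene models, per the file headers. TopHat2 2.09 and DESeq were used, per the submitters' processing notes, with no stated role. The adjusted p-value, the ratio (fold) tables and the correlation score are the authors' deposited values; per the file headers the p-value rests on experiments 2 and 3. How reads were counted, and how shared reads were handled, is not given in the sources used here. RPKM steps gave whole reads within 0.001 reads for all 35326 transcripts above 0, and mapped reads of 27083637 to 38903417.

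Because the values are RPKM, limma 3.58.1 in R 4.3.3 (eBayes with trend, two-sided) was fitted on log2(RPKM + 0.5) for the 16514 transcripts with a lip mean of at least 1 RPKM, with Benjamini-Hochberg adjustment and a threshold of 0.05, and was tested on simulated data. The data simulated for the dorsal to ventral fit held no difference between experiments. They therefore do not show how well the fit without the block finds changes in these libraries. Fold changes on this scale understate those of low transcripts. Deviations of same-numbered dorsal and ventral lips correlated at 0.926, 0.881 and 0.819, so the experiment numbers, given per the file headers, were taken to pair the libraries. Between experiments 2 and 3 the correlations of unlike numbers were 0.839 and 0.748, the first above the 0.819 of experiment 3 itself, so pairing by number within these 2 cannot be settled from the data. The 29 calls with the block there, against 14 without, rest on it, as do the 12 calls with the block over all 3 experiments.

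Members and gene lists were chosen with earlier results of these data known. Named members are drawn from those called in either lip comparison, the highest of each family, the 5 highest and 5 lowest against the whole embryo, the 5 most unequal pairs, the maternal and zygotic cyclin and WEE pairs, and the CDKN1 and CDKN2 members. Some members called between experiments, such as e2f5.S, are not described one by one. Other members were named after their values were seen. Of 65 members with their own symbol, 60 are in the RefSeq gene table (v10.1).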

Additional observations from a re-analysis of the deposited data

Results flagged for a closer look

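The dorsal to ventral difference of plk3.L differed between experiments. In experiment 1 the log2 difference, dorsal minus ventral, was lower by 1.743 than in experiments 2 and 3 (interaction of -1.743, limma adjusted p = 0.00792). The dorsal lips lay between 31.1 and 34.6 RPKM in all 3 experiments. The ventral lip of experiment 1 carried 26.4 RPKM, against 6.85 and 7.14 RPKM in the ventral lips of experiments 2 and 3. The summed level of the 3 ventral markers in that ventral lip was 424 RPKM, against 226 and 257 RPKM in the ventral lips of experiments 2 and 3, and that of the 3 dorsal markers was 7.44 RPKM, against 3.42 and 3.19 RPKM. The 3 genes listed here as pan-mesoderm markers, T, EOMES and MIXER, summed to 627 RPKM in it, against 281 and 361 RPKM. The largest part was MIXER, with 276 RPKM in it, against 129 and 155 RPKM. T had 168 RPKM in it, against 30.6 and 56.1 RPKM, and EOMES 183 RPKM, against 121 and 150 RPKM. GATA6, of the endoderm markers, had 25.5 RPKM in it, against 3.85 and 5.90 RPKM, and GATA4 17.0 RPKM, against 2.93 and 4.10 RPKM. SOX17A, the other endoderm marker found, went the other way, with 77.8 RPKM in it, against 96.8 and 90.2 RPKM. The endoderm markers found summed to 120.3 RPKM in it, against 103.6 and 100.25 RPKM. The epidermis markers summed to 210.5 RPKM in it, against 121 and 135 RPKM. Their part in the difference was not tested.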

How the results depend on the processing

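Of the dorsal to ventral calls, the count of 0 became 12 with the replicate block, 14 in experiments 2 and 3 alone, 29 there with the block, and 25 with limma voom and the block, where 9.94% of all transcripts were called. Leaving out one library gave 0 to 2 calls without the block, where 0.127 to 0.842% of all were called, the 2 and the 0.842% without ventral lip replicate 1, and 0 to 30 with it, where 0.46 to 9.11% of all were called. With the block such a run in effect dropped both lips of that experiment. Neither pseudocount, filter nor rescaling gave a call without the block. Leaving out one library in turn, the unblocked difference of ccnb3.S ranged between -0.17 and 0.93 and that of ccndx.L between -0.054 and 1.15. It reversed for ccnb3.S without dorsal lip replicate 1 (-0.17) or ventral lip replicate 2 (-0.011), and for ccndx.L without dorsal lip replicate 2. Without the block, such a run leaves the sides with unequal shares of experiment 1, where ccnb3.S was higher and ccndx.L lower than in experiments 2 and 3. Within experiments 1, 2 and 3 the dorsal minus ventral difference was 0.23, 0.43 and 0.40 for ccnb3.S, and -0.72, 0.91 and 0.95 for ccndx.L. The part of these shares in the reversals was not tested. Between experiments, 51 to 61 members were called when leaving out one library, where 59.8 to 74.6% of all were. Against the whole embryo, the count of 0, where 0.563% of all transcripts were past 2-fold, became 7 with the mean of all 6 lips (7.28% of all) and 2 with the dorsal lip alone (2.12%). The mean of all 6 lips also holds the difference between experiments. Depth limits values near the worth of 1 read, such as those of cdkn2b.L and cdk6.S. The whole embryo comparison has no replicate.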
